A study of Mus musculus with 6 samples.

Results

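The TNF ligand and receptor superfamilies were followed here in mouse lung tissue, as the genes named Tnf or carrying a numbered Tnfsf or Tnfrsf symbol. The choice used names only, and it found 32 genes, 12 ligands and 20 receptors, among the 23238 gene symbols counted. Lungs came from wild-type mice that received either PM or PBS (phosphate-buffered saline, the vehicle), in both cases by the route the labels abbreviate as i.t. The labels do not spell out PM and give no dose, duration, age or sex, and the title calls the exposure chronic. Each group had 3 deposited samples, but PBS replicates 1 and 2 held the same value in each of 23282 entries, which is less than sampling noise, and count as 1 library. PM libraries 1 to 3 were therefore compared with PBS libraries 1 and 3. Total counts were 7410200 to 8798953 in PM and 7660937 and 8827202 in PBS, so that a count of 0 allows a level of up to 0.430 CPM (the count over the scaled library total, times a constant), for counting error alone. Summed lung epithelial markers (Sftpc, Sftpb, Sftpa1, Scgb1a1 and Epcam, 5 of 5 detected) lay at 37898 to 51948 CPM in PM and at 37859 and 41182 CPM in PBS.

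TNF family ligands are mostly trimeric proteins of the cell surface, some of which are shed, and their receptors carry cysteine-rich repeats outside the cell. Receptors with a death domain can start caspase activation, while others bind TRAF adaptors and lead to NF-kappaB and kinase signalling. Decoy receptors hold ligand without passing on a signal. In the lung these proteins are known from inflammation, from the survival of B cells and plasma cells, and from the co-stimulation of T cells.

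Both receptors of TNF and the ligands APRIL and TWEAK were the 4 members with the highest mean levels per length of annotated exon in PM and in PBS. Tnfrsf1a, the widely expressed TNF receptor with a death domain, came highest in both groups, at 41.2 ± 1.69 CPM per kilobase in PM and 40.2 ± 5.13 in PBS (SD, n = 3 PM and 2 PBS libraries, as for all values below). Tnfrsf1b, the TNF receptor of leukocytes and endothelium, stood at 27.5 ± 6.36 CPM per kilobase in PM and 19.8 ± 2.30 in PBS. Tnfsf13, which encodes APRIL, a ligand that supports plasma cells, stood at 26.8 ± 3.45 CPM per kilobase in PM and 21.1 ± 3.03 in PBS. Tnfsf12, which encodes TWEAK, stood at 19.9 ± 3.47 CPM per kilobase in PM and 26.2 ± 0.0596 in PBS. The libraries of Tnfrsf1b and Tnfsf13 overlapped in both groups, as the plot of levels per exon length shows, so their order relative to each other was not resolved. Tnf itself ranked 19 of 32 in PM and 23 of 32 in PBS, at 1.25 ± 0.0528 CPM per kilobase in PM and 0.471 ± 0.134 in PBS.

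**Figure D1:**
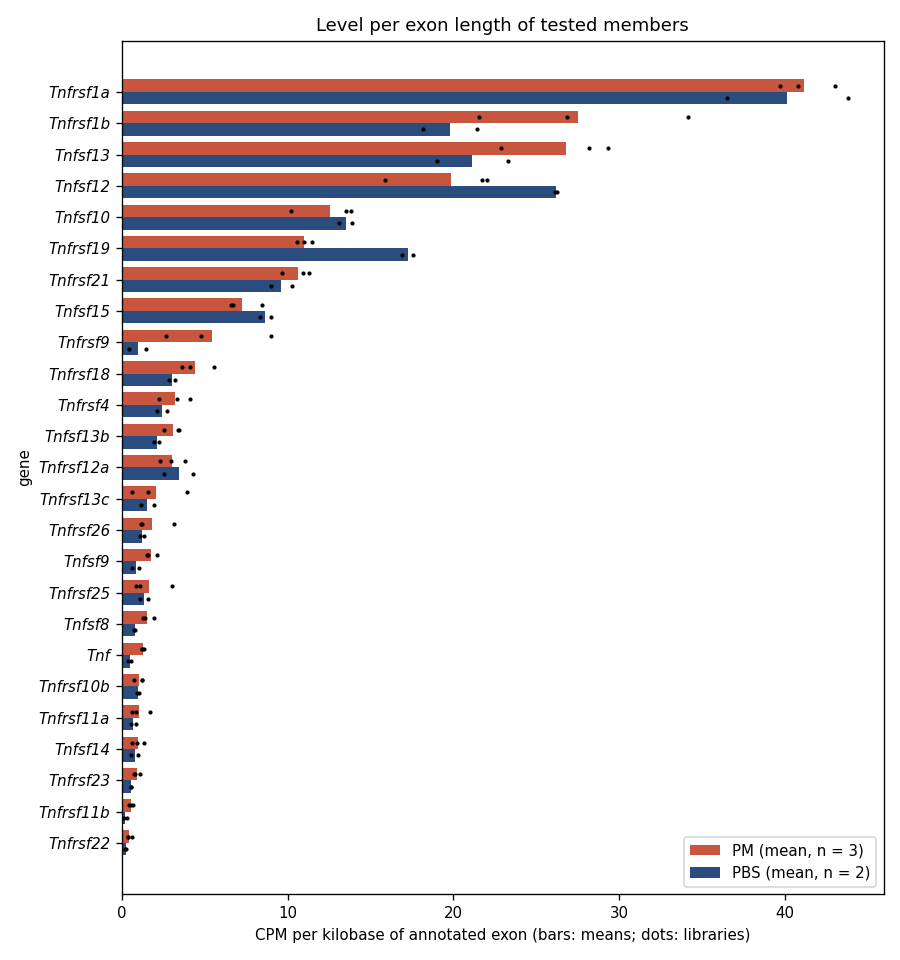
CPM per kilobase of annotated exon for the 25 tested members, sorted by the PM mean. Bars are group means (PM above, PBS below) and dots are libraries; Tnfrsf1a is highest in both groups, and Tnfrsf9 and Tnfrsf19 show bars of clearly unequal length.

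Of the 32 members, 7 had too few counts to be tested. Tnfrsf8 (CD30) was at 0 counts in every library. Tnfsf11 (RANKL) had 4, 8 and 0 counts in PM replicates 1, 2 and 3 and 0 counts in both PBS libraries. Tnfsf18 (the ligand of GITR) had 2, 2 and 5 counts in PM, against 1 and 0 in PBS, and Tnfsf4 (the ligand of OX40) had 0, 0 and 1 in PM, against 0 and 1 in PBS. Tnfrsf13b (TACI) had 3 to 5 counts in PM and 5 and 4 in PBS. Tnfrsf14 (HVEM) had 1, 0 and 1 counts in PM and 2 in each PBS library, and Tnfrsf17 (BCMA, a plasma cell receptor) had 0, 0 and 3 in PM, against 4 and 0 in PBS. At this depth no difference was detectable for these genes.

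No member passed the test over all genes: of 25 tested, 0 rose and 0 fell by the quasi-likelihood test of edgeR (two-sided, adjusted p below 0.05 after Benjamini and Hochberg). Over all 14057 tested genes, 0.228% passed, of which 0.142% rose and 0.0854% fell. At an unadjusted p below 0.05, 4 members were higher in PM, where 7.26% of all genes were, and 2 were lower, where 6.05% of all genes were. DESeq2 called 2 members, Tnfrsf9 higher and Tnfrsf19 lower, where it called 2.72% of all genes, and limma-voom called 0, where it called 0.121%. The log2 fold was above 0 for 20 of the 25 tested members, where it was for 51.1% of all tested genes. Its median was 0.43 over the members and 0.01 over all tested genes. All PM libraries lay above both PBS libraries for 10 members (15.5% of all genes) and below them for 2 (16.1% of all genes). These counts describe the tested members only, since Tnf, Tnfrsf11b and Tnfrsf22 had under 10 counts in each PBS library and entered the test through their PM libraries. Tnfsf9 and Tnfsf14 had 7 and 9 counts in PBS replicate 1 and likewise needed PM libraries to enter. The counts and the median of the members include these genes, so the filter can tilt them towards PM. How much it does was not tested.

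**Figure D2:**
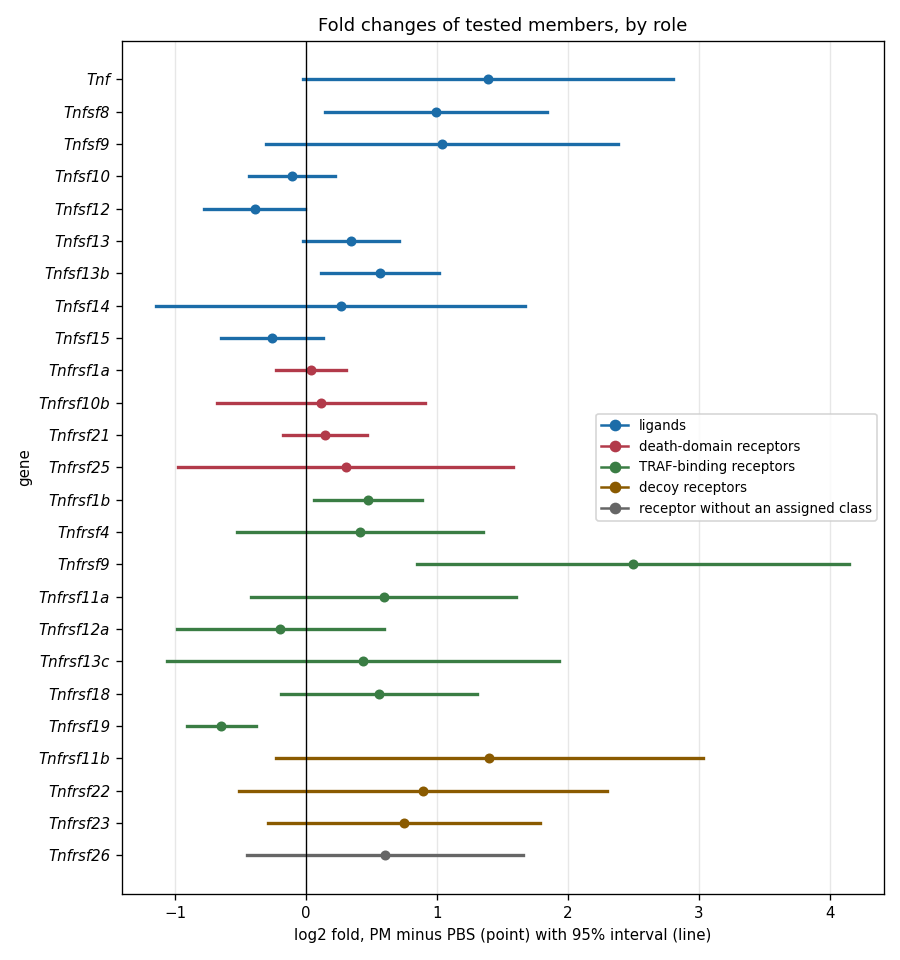
Log2 folds, PM minus PBS, of the 25 tested members with 95% intervals from edgeR's quasi-likelihood fit, coloured by role. The intervals of Tnfrsf19 and Tnfsf12 lie below 0 and those of Tnfrsf9, Tnfsf13b, Tnfsf8 and Tnfrsf1b above 0, before any adjustment for the 14057 tests.

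Tnfrsf19, which encodes TROY, a receptor that signals through TRAF proteins and is known as a Wnt target in stem cells, had the smallest p among the members. It stood at 52.0, 54.3 and 50.2 CPM in PM replicates 1, 2 and 3, against 83.3 and 80.1 CPM in PBS replicates 1 and 3. The groups were far apart compared with the spread within each, and every PM library was lower. The ratio of PM to PBS was 0.638, a log2 fold of -0.65 ± 0.12 SE with an adjusted p of 0.0525 (edgeR, Benjamini-Hochberg; 95% interval of the log2 fold -0.91 to -0.38). That lies just outside the threshold. Leaving out PM replicate 2 or 3 brought the adjusted p by edgeR to 0.0453 and 0.0275, and leaving out PM replicate 1 to 0.142. Calls over all genes were 106, 427 and 12 in these settings, against 32 in the main fit. The adjusted p was 0.00247 by DESeq2 and 0.0900 by limma-voom. The fold kept within -0.68 and -0.62 whichever library was left out. It was -0.62 without PBS replicate 1 and -0.68 without PBS replicate 3. Those fits keep 1 PBS library, so no adjusted p is given for them. The values above therefore do not show that the adjusted p stays near the threshold when a PBS library is left out. The gene lies on chromosome 14 at 60963834 to 61046855 in GRCm38, the assembly of mm10.

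Levels of fibroblast and endothelial markers stand beside this difference, and none of them passed the test. Of 3 fibroblast markers, Pdgfra was at 97.6, 79.7 and 110 CPM in PM and at 170 and 160 CPM in PBS, with no overlap, while Col1a1 and Col1a2 overlapped between groups. The 3 fibroblast markers summed to 628 to 982 CPM in PM and to 950 and 915 CPM in PBS, which overlap. The 3 endothelial markers (Pecam1, Cdh5 and Cldn5) summed to 742 to 780 CPM in PM and to 939 and 932 CPM in PBS, with Pecam1 and Cdh5 lower in every PM library and Cldn5 overlapping. None of these markers was at 0. The part of these cell types in the Tnfrsf19 difference was not tested, and in bulk tissue fewer cells of a type and less RNA per cell cannot be told apart.

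The promoters of the members with the smallest p in each direction, Tnfrsf19 and Tnfrsf9, and of Tnf were examined for matches to a kappaB site, as NF-kappaB binds, and to an AP-1 site. The sequences come from RefSeq (GRCm38.p6) and run from 250 bases before to 50 after each annotated start, 5′ to 3′ on the gene's strand; the counts do not tell which start was in use. Capitals mark matches to GGGNNTTCC (kappaB) or TGACTCA (AP-1) on either strand; these motifs do not overlap in the windows shown.
Tnfrsf19, upstream start (chr14:61046806-61047105, - strand): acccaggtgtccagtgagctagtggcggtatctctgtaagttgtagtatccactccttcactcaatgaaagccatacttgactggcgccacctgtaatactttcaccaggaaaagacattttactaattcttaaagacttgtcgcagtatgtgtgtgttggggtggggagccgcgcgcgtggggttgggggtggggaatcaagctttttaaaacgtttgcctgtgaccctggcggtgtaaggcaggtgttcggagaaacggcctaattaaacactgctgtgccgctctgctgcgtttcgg
Tnfrsf19, downstream start (chr14:61037938-61038237, - strand): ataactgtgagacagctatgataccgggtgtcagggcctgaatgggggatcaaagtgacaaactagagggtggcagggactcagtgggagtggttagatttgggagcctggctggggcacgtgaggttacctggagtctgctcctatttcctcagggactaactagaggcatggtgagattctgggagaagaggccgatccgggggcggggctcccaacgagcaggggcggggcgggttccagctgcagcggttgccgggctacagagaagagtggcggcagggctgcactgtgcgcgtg
Tnfrsf9, upstream start (chr4:150919905-150920204, + strand): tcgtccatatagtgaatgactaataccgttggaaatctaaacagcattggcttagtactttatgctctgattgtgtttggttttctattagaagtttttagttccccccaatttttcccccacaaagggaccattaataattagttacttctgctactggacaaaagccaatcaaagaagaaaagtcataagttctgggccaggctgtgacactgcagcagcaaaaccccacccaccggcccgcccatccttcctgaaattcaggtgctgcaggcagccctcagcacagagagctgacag
Tnfrsf9, downstream start (chr4:150927749-150928048, + strand): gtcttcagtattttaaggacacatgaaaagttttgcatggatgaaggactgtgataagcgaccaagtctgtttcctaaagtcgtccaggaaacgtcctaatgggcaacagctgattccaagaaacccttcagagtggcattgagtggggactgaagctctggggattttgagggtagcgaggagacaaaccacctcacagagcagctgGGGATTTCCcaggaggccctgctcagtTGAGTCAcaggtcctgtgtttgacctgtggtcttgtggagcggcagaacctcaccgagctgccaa
Tnf (chr17:35201958-35202257, - strand): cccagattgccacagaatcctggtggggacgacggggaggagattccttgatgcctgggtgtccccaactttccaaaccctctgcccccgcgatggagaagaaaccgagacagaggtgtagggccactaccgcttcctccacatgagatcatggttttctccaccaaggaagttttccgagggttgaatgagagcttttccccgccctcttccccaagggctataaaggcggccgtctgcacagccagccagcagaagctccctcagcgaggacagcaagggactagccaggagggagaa
Of these 5 windows, the downstream start of Tnfrsf9 held matches, and the other windows do not contain these letters. Its kappaB letters, GGGATTTCC, begin 42 bases before the start, and an AP-1 match (TGAGTCA, the reverse strand of the motif) begins 15 bases before it. The kappaB letters occur in 5.82% of 32851 RefSeq promoters of the same length. They occur in 2 of the 29 promoters listed for 25 members (Tnfrsf9 and Tnfrsf13b). The AP-1 letters occur in 5.20% of promoters and in 6 of the 29 member promoters. These belong to 5 members (Tnfrsf8, Tnfrsf9, Tnfsf13, Tnfsf13b and Tnfsf14), and the windows of Tnfsf13b overlap and hold the same site. The kappaB letters were settled on after longer forms had been tried on the same windows. A match is a description of the letters, not of binding. The kappaB letters have a fixed spacing, so a window without them can still hold a kappaB site of another form.

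Tnfrsf9, which encodes 4-1BB, a co-stimulatory receptor of activated T and NK cells, had the largest fold among the members. It stood at 13.0, 24.5 and 7.19 CPM in PM replicates 1, 2 and 3 (111, 171 and 57 counts), against 3.94 and 1.23 CPM in PBS replicates 1 and 3 (34 and 10 counts). Every PM library was above both PBS libraries, with PM replicate 2 highest and PBS replicate 3 lowest. The ratio of PM to PBS was 5.65, a log2 fold of 2.50 ± 0.69 SE with an adjusted p of 0.194 (edgeR, Benjamini-Hochberg; 95% interval 0.85 to 4.15). Without PM replicate 3 the log2 fold was 2.83 with an adjusted p of 0.0359 by edgeR (0.000957 to 0.725 over the 13 alternatives), and the range over left-out libraries was 1.91 to 3.57. Tnfrsf9 lies on chromosome 4 at 150920155 to 150946104.

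Tnfsf9, the ligand of 4-1BB, was also higher in every PM library. It stood at 1.99, 2.72 and 2.02 CPM in PM, against 0.811 and 1.36 CPM in PBS, from 7 to 19 counts a library. Its log2 fold was 1.04 ± 0.61 SE and did not pass the test (adjusted p = 0.504 by edgeR, Benjamini-Hochberg adjusted). In GENCODE M21, 192 of its exon bases are overlapped by Gm11110 on the opposite strand, and whether counting used strand is not given in the sources used here.

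Summed markers of T cells and of regulatory T cells were likewise higher in PM replicates 1 and 2 than in PM replicate 3. The 4 regulatory T cell markers (Foxp3, Ctla4, Il2ra and Ikzf2) summed to 42.9, 46.4 and 20.4 CPM in PM replicates 1, 2 and 3 and to 25.1 and 24.0 CPM in PBS. Among them Il2ra, the high-affinity IL-2 receptor chain, had a log2 fold of 1.54 ± 0.61 SE (adjusted p = 0.302 by edgeR, Benjamini-Hochberg adjusted). T cell markers (Cd3e, Cd3d, Cd3g and Cd4, 4 of the 5 listed) summed to 53.3, 53.9 and 32.9 CPM in PM and to 32.2 and 40.0 CPM in PBS. Of both lists, Cd4, Ctla4 and Il2ra were higher in every PM library. Foxp3, Ikzf2, Cd3e, Cd3d and Cd3g overlapped between groups. Cd3d did not follow the sums, at 16.8, 8.60 and 10.2 CPM in PM replicates 1, 2 and 3 and at 9.27 and 14.2 CPM in PBS. The 3 NK cell markers (Ncr1, Klrb1c and Gzma) summed to 28.9, 20.8 and 14.5 CPM in PM and to 37.0 and 44.6 CPM in PBS, and Klrb1c alone overlapped between groups. Ctla4 was at 0 in PBS replicate 1, and no other of these markers was at 0 in any library. Their part in the Tnfrsf9 values was not tested.

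Other co-stimulatory members had folds above 0 that did not pass the test. Tnfsf8, the ligand of CD30, stood at 7.36, 5.30 and 4.79 CPM in PM, against 2.90 and 2.96 CPM in PBS. The groups did not overlap, and the log2 fold was 0.99 ± 0.39 SE (adjusted p = 0.296 by edgeR, Benjamini-Hochberg adjusted; 95% interval 0.14 to 1.84). Its receptor gene, Tnfrsf8, had no counts. Tnfrsf18 (GITR, a receptor of regulatory T cells) stood at 6.31, 8.46 and 5.55 CPM in PM, against 4.87 and 4.32 CPM in PBS, again without overlap, with a log2 fold of 0.55 ± 0.34 SE. Tnfrsf4 (OX40), its neighbour on chromosome 4, stood at 4.56, 5.59 and 3.03 CPM in PM, against 2.90 and 3.70 CPM in PBS, and the groups overlapped. For Tnfrsf18, 414 exon bases are overlapped by Gm16008 on the opposite strand.

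The remaining tested members of this kind overlapped between groups. Tnfsf15 (TL1A) stood at 22.0, 28.4 and 22.4 CPM in PM and at 30.1 and 27.9 CPM in PBS. Tnfrsf25, its receptor DR3, stood at 2.45, 6.88 and 1.89 CPM in PM and at 2.43 and 3.58 CPM in PBS, so that PM replicate 2 alone was high. Without that library the log2 fold of Tnfrsf25 was -0.46, against 0.30 with it. Tnfsf14 (LIGHT, the ligand of HVEM) stood at 1.17, 2.44 and 1.64 CPM in PM and at 1.04 and 1.85 CPM in PBS.

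**Figure D3:**
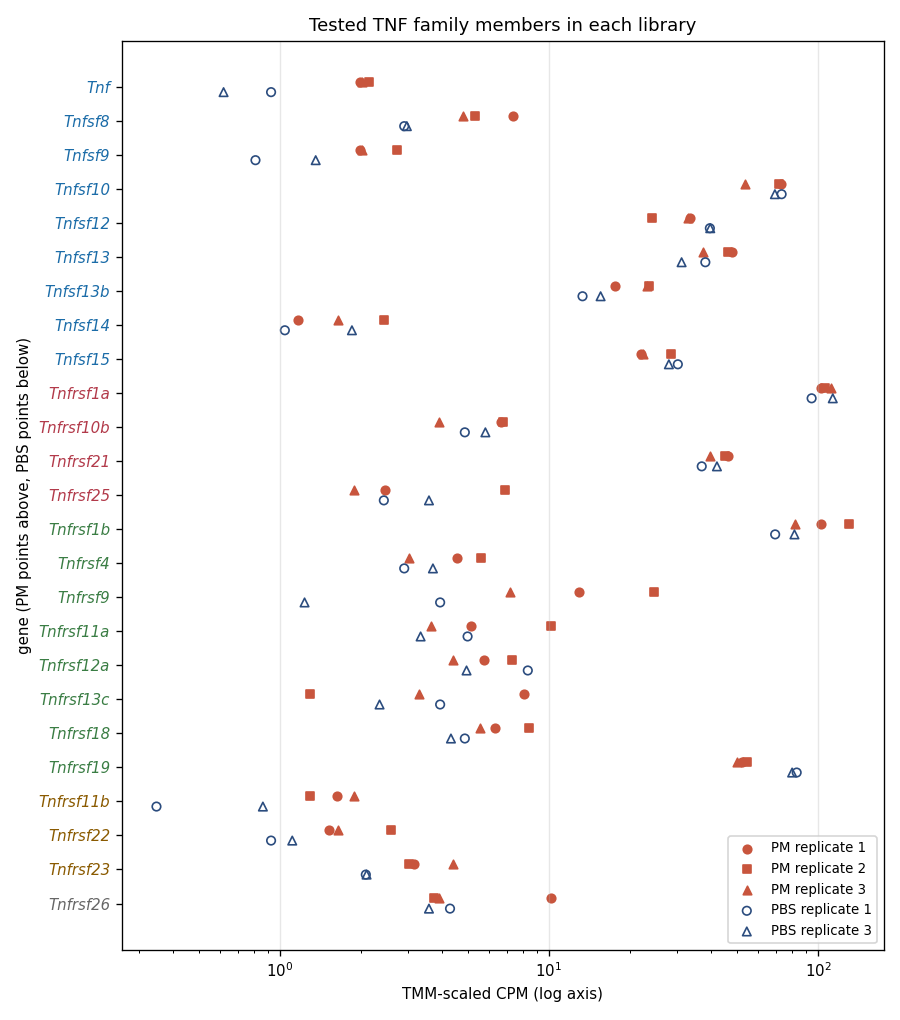
TMM-scaled CPM of the 25 tested members in each library on a log axis, with PM libraries as filled symbols above and PBS libraries as open symbols below. The PM symbols of Tnfrsf19 sit between 50.2 and 54.3 CPM, left of both PBS symbols, and those of Tnfrsf9 between 7.19 and 24.5 CPM, right of both.

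In the TNF system proper, the ligand was low and its receptors abundant. Tnf, the founding inflammatory cytokine of the family, stood at 1.99, 2.15 and 2.02 CPM in PM (17, 15 and 16 counts), against 0.927 and 0.617 CPM in PBS (8 and 5 counts). The 3 PM libraries were close to each other and above both PBS libraries. The log2 fold was 1.39 ± 0.64 SE (adjusted p = 0.384 by edgeR, Benjamini-Hochberg adjusted), with a 95% interval of -0.03 to 2.80 that reflects the few counts. Tnf lies on chromosome 17 at 35199367 to 35202007.

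The TNF receptors were measured far more precisely. Tnfrsf1b stood at 102, 131 and 82.2 CPM in PM, against 69.3 and 81.7 CPM in PBS, with PM replicate 3 only just above PBS replicate 3. Its log2 fold was 0.48 ± 0.18 SE (adjusted p = 0.302 by edgeR, Benjamini-Hochberg adjusted), and 0.63 with an adjusted p of 0.0422 by edgeR without PM replicate 3 (0.0422 to 0.754 over the 13 alternatives). Without PM replicate 2 the log2 fold was 0.29. Tnfrsf1a stood at 103, 106 and 111 CPM in PM and at 94.7 and 113 CPM in PBS, with full overlap. Its log2 fold was 0.04 ± 0.12 SE, and the 95% interval of -0.23 to 0.30 bounds any difference between the groups to that range. Macrophages and neutrophils are known sources of TNF and carriers of its receptors. The 4 alveolar macrophage markers (Marco, Siglecf, Ear2 and Fabp5) summed to 340 to 436 CPM in PM and to 178 and 255 CPM in PBS, and 3 of 4 neutrophil markers (S100a8, S100a9 and Retnlg) to 185 to 860 CPM in PM and to 248 and 119 CPM in PBS. Ear2 and Fabp5 were higher in every PM library, while Marco and Siglecf overlapped between groups. Marco stood at 52.1, 1.72 and 55.4 CPM in PM and at 0.811 and 3.83 CPM in PBS. Of the neutrophil markers, Retnlg was higher in every PM library, and S100a8 and S100a9 overlapped. None of these markers was at 0, and their part in the values of Tnf and Tnfrsf1b was not tested.

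Among the B cell survival factors both ligands had folds above 0. Tnfsf13b, which encodes BAFF, a survival ligand of B cells, stood at 17.5, 23.5 and 23.1 CPM in PM, against 13.3 and 15.6 CPM in PBS. All PM libraries were above both PBS libraries. The log2 fold was 0.56 ± 0.21 SE (adjusted p = 0.258 by edgeR, Benjamini-Hochberg adjusted; 95% interval 0.11 to 1.02). Tnfsf13 (APRIL) stood at 48.0, 46.1 and 37.5 CPM in PM and at 38.1 and 31.1 CPM in PBS, an overlap set by PM replicate 3 and PBS replicate 1.

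The counts of Tnfsf13 are not separate from those of Tnfsfm13, a read-through gene that spans Tnfsf12 and Tnfsf13. Tnfsfm13 shares 983 exon bases with Tnfsf13 and 731 with Tnfsf12. Tnfsfm13 had 415, 337 and 301 counts in PM and 333 and 258 in PBS, against 411, 322 and 297 in PM and 329 and 252 in PBS for Tnfsf13. Levels of Tnfsf13 are therefore uncertain as to which transcript they come from.

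Of the receptors in this group, Tnfrsf13c (the BAFF receptor of B cells) had enough counts for a test. It stood at 8.06, 1.29 and 3.28 CPM in PM and at 3.94 and 2.35 CPM in PBS, so that PM replicates 1 and 2 were the extremes on either side of PBS. Its log2 fold was 0.43 ± 0.67 SE, and -0.45 without PM replicate 1. Among B cell markers, Cd79a stood at 14.5, 5.73 and 6.68 CPM in PM and at 10.5 and 6.30 CPM in PBS. Ms4a1 and Cd79b were likewise highest in PM replicate 1, and all of these overlapped between groups. The 4 plasma cell markers (Jchain, Mzb1, Sdc1 and Derl3) summed to 140 to 175 CPM in PM and to 86.3 and 82.9 CPM in PBS. Of these, Jchain passed the test, at 76.2, 68.6 and 46.3 CPM in PM and 5.56 and 3.46 CPM in PBS (adjusted p = 0.00305 by edgeR), and the other 3 overlapped between groups. Whether B cells or plasma cells contribute to the values of the BAFF and APRIL genes was not tested.

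The gene of TWEAK lay below PBS in every PM library. Tnfsf12 stood at 33.4, 24.1 and 32.9 CPM in PM, against 39.6 and 39.8 CPM in PBS. The log2 fold was -0.39 ± 0.17 SE (adjusted p = 0.356 by edgeR, Benjamini-Hochberg adjusted; 95% interval -0.78 to -0.01), which did not pass the test. PM replicate 2 was lowest, and without it the log2 fold was -0.26. Tnfrsf12a, which encodes Fn14, the receptor of TWEAK that is induced in injured tissue, stood at 5.73, 7.31 and 4.41 CPM in PM and at 8.34 and 4.94 CPM in PBS, with overlap.

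In the RANK system, known from bone turnover and lymph node formation, the soluble decoy did not overlap between groups. Tnfrsf11b, which encodes osteoprotegerin, stood at 1.64, 1.29 and 1.89 CPM in PM (14, 9 and 15 counts), against 0.348 and 0.864 CPM in PBS (3 and 7 counts). Every PM library was above both PBS libraries, and the log2 fold was 1.40 ± 0.74 SE (adjusted p = 0.456 by edgeR, Benjamini-Hochberg adjusted). With so few counts it ran from 0.89 without PBS replicate 1 to 2.16 without PBS replicate 3. Tnfrsf11a (RANK) stood at 5.14, 10.2 and 3.66 CPM in PM and at 4.98 and 3.33 CPM in PBS, high in PM replicate 2 and otherwise within the PBS range or close to it. Without PM replicate 2 its log2 fold was 0.08, against 0.59 with it.

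TRAIL and its signalling receptor showed no difference beyond the spread of libraries. Tnfsf10 (TRAIL, an apoptosis-inducing ligand) stood at 72.9, 71.4 and 53.7 CPM in PM and at 73.2 and 69.1 CPM in PBS, with a log2 fold of -0.11 ± 0.15 SE and a 95% interval of -0.44 to 0.22. Tnfrsf10b, its death receptor, stood at 6.66, 6.74 and 3.91 CPM in PM and at 4.87 and 5.80 CPM in PBS. Tnfrsf21 (DR6, another death-domain receptor) stood at 46.4, 45.0 and 39.7 CPM in PM and at 37.0 and 42.1 CPM in PBS, with a 95% interval of the log2 fold of -0.18 to 0.47. The 4 death-domain receptors thus all overlapped between groups, with log2 folds from 0.04 to 0.30.

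The mouse decoy receptors of TRAIL, Tnfrsf22 and Tnfrsf23, lie beside Tnfrsf26 on chromosome 7, from 143607685 to 143686436. Tnfrsf23 stood at 3.16, 3.01 and 4.41 CPM in PM, against 2.09 and 2.10 CPM in PBS, and its log2 fold was 0.75 ± 0.47 SE. Tnfrsf22 stood at 1.52, 2.58 and 1.64 CPM in PM, against 0.927 and 1.11 CPM in PBS, and its log2 fold was 0.89 ± 0.64 SE. Both were higher in every PM library, and neither passed the test (adjusted p = 0.530 and 0.587 by edgeR, Benjamini-Hochberg adjusted). They cannot be treated as independent observations, since 27.4% of the 50-base windows of Tnfrsf22 transcripts and 19.3% of those of Tnfrsf23 occur in another gene, each being among the genes that share the other's windows. Tnfrsf26 stood at 10.2, 3.73 and 3.91 CPM in PM and at 4.29 and 3.58 CPM in PBS. Its log2 fold was 0.60 with all libraries and -0.04 without PM replicate 1.

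Several members followed a single PM library. Among the 25 tested members, PM replicate 2 was the highest PM library for 15, PM replicate 1 for 7 and PM replicate 3 for 3. On a log2(CPM + 0.5) scale relative to the PBS mean, the median over members was 0.41, 0.62 and 0.10 in PM replicates 1, 2 and 3, while the median over all tested genes was within 0.01 of 0 in each. In PM replicate 3, 15 of the 25 were above the PBS mean, compared with 18 in PM replicate 1 and 20 in PM replicate 2. These medians and counts include the members that entered the test through their PM libraries. Members with an even shift over the PM libraries included Tnf, at 0.98, 1.07 and 1.0 on this scale, and Tnfrsf19, at -0.65, -0.58 and -0.70. Tnf had 17, 15 and 16 counts in PM, so its evenness cannot be told from counting error. Tnfsf9, at 0.67, 1.05 and 0.69, and Tnfrsf11b, at 0.99, 0.73 and 1.15, were also shifted in all PM libraries. The libraries also differed in Rn45s, a ribosomal RNA gene. It held 23.6, 25.4 and 15.7% of counts in PM replicates 1, 2 and 3 and 18.2 and 16.3% in PBS replicates 1 and 3. Its relation to the member medians was not tested.

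**Figure D4:**
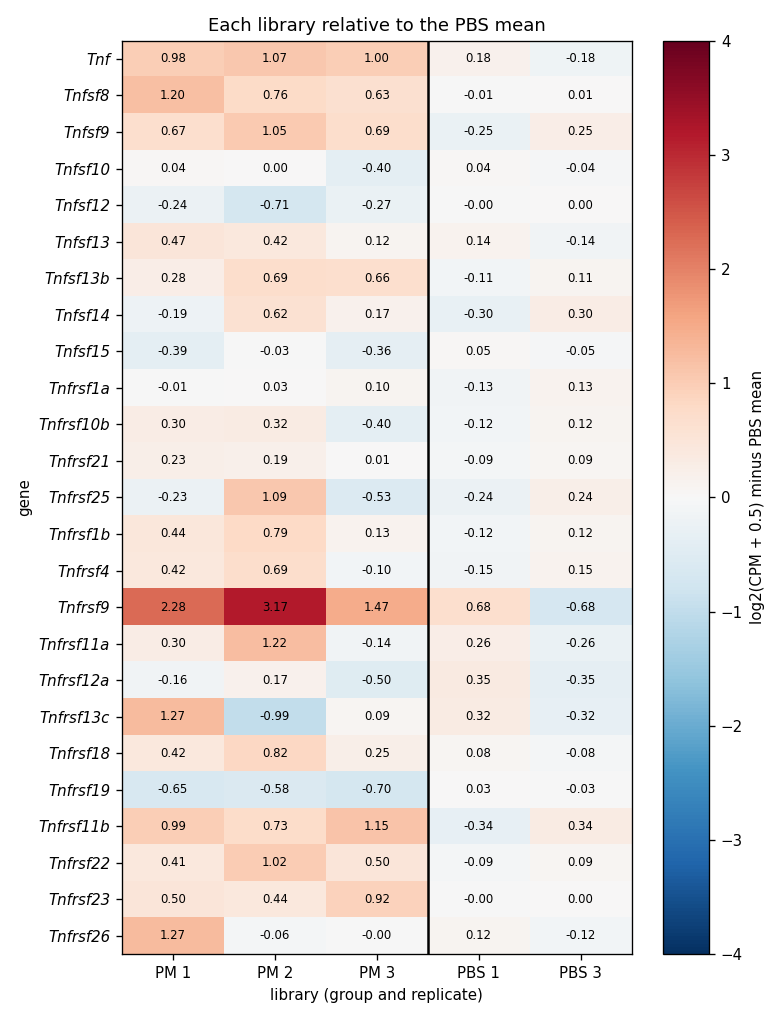
Level of each tested member in each library as log2(CPM + 0.5) minus the PBS mean; red is above and blue below that mean. The row of Tnfrsf9 is highest in PM replicate 2 (3.17), and the rows of Tnf (17, 15 and 16 counts in PM) and Tnfrsf19 are even over the PM libraries.

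None of the family members that carry other names passed the test. Of 14 such genes, 9 were tested, 0 rose and 0 fell by edgeR, and DESeq2 and limma-voom called 0. At an unadjusted p below 0.05, 1 of the 9 was higher, where 7.26% of all tested genes were, and 1 was lower, where 6.05% were. Their median log2 fold was 0.02, against 0.01 over all genes. Cd40lg, the T cell ligand of CD40, stood at 1.52, 2.15 and 1.26 CPM in PM, against 0.116 and 0.494 CPM in PBS, with a log2 fold of 2.38 ± 0.87 SE (adjusted p = 0.257 by edgeR, Benjamini-Hochberg adjusted). Its PBS values rest on 1 and 4 counts, so the size of the fold is uncertain. Ltbr, the lymphotoxin beta receptor, stood at 93.7, 100.3 and 99.5 CPM in PM, against 122 and 120.4 CPM in PBS, with a log2 fold of -0.31 ± 0.11 SE (adjusted p = 0.240). Fas and Cd40 had log2 folds of 0.02 and -0.03.

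No gene of the signalling path downstream of the receptors passed the test. All 39 listed genes were tested, and 0 rose and 0 fell by edgeR, with 0 called by DESeq2 and by limma-voom. The list holds adaptors, kinases, cell death genes, ubiquitin enzymes and NF-kappaB proteins. It also holds Adam17 and Timp3, which act on shedding and not downstream of the receptors. At an unadjusted p below 0.05, 2 of the 39 were higher, where 7.26% of all tested genes were, and 2 were lower, where 6.05% were. The median log2 fold was 0.08, against 0.01 over all genes. The genes past that p are named below and are not read as a result about the path. Mlkl, the executor of necroptosis, stood at 5.38, 7.17 and 7.57 CPM in PM, against 1.39 and 3.83 CPM in PBS, a log2 fold of 1.36 ± 0.46 SE (adjusted p = 0.213 by edgeR). Birc3, an inhibitor of apoptosis and NF-kappaB target, stood at 20.7, 22.6 and 18.8 CPM in PM, against 12.9 and 16.8 CPM in PBS. Cflar, the inhibitor of caspase-8 activation, stood at 116, 131 and 132 CPM in PM, against 149 and 168 CPM in PBS, a log2 fold of -0.33 ± 0.12 SE (adjusted p = 0.243 by edgeR). Map3k7, which encodes the kinase TAK1, stood at 38.0, 37.4 and 37.8 CPM in PM, against 46.6 and 46.4 CPM in PBS. Nfkbia and Tnfaip3, feedback inhibitors that NF-kappaB induces, had log2 folds of 0.12 and -0.01.

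Over the 13 alternative settings, the direction of most members was stable. The folds of Tnf, Tnfrsf9, Tnfrsf19, Tnfrsf1b, Tnfsf8, Tnfsf9, Tnfsf12 and Tnfsf13b kept their sign in all of them, whereas those of Tnfrsf10b, Tnfrsf12a, Tnfrsf13c, Tnfrsf1a, Tnfrsf25, Tnfrsf26, Tnfsf10 and Tnfsf14 changed sign in at least 1. Tnfrsf19 passed an adjusted p of 0.05 in 6 alternatives, Tnfrsf9 in 4 and Tnfrsf1b in 1. In each of these settings more of all tested genes passed as well, 106 to 635 against 32 in the main fit. The setting with all 6 tables counts 1 library as 2, and in the replicate block PM replicate 2 has no PBS partner. Passing there is therefore not particular to these members.

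**Figure D5:**
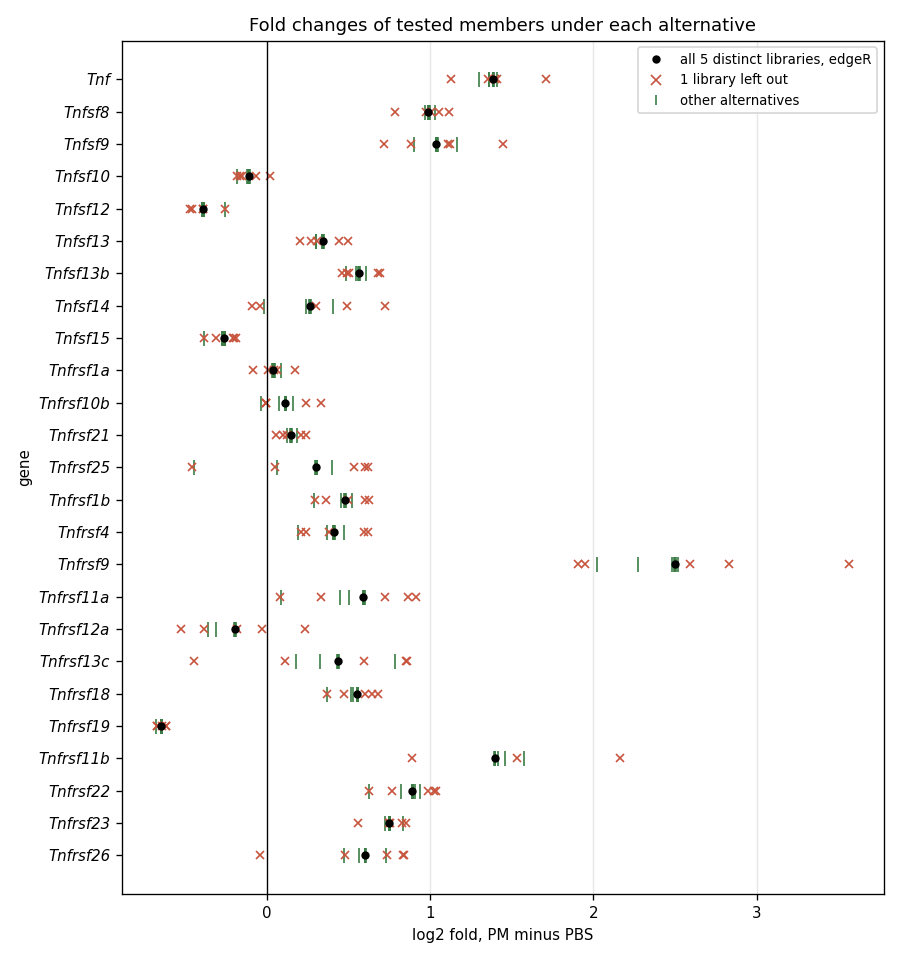
Log2 fold, PM minus PBS, of each tested member with all 5 distinct libraries (dot), with 1 library left out (cross) and under the other alternatives (tick). Tnfrsf19 stays within -0.68 and -0.62, whereas Tnfrsf9 spans 1.91 to 3.57.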

How the data were processed

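RNA of lung tissue was extracted with easy-BLUE and prepared with a SENSE mRNA-Seq kit (Lexogen), per the labels' protocols. The submitters' processing notes name TopHat, Cufflinks and mm10; the counting program and its use of strand are not stated there. The authors deposited raw read counts per gene symbol. Nothing in the labels ties samples to separate animals, so the p-values describe the spread between these samples alone, which may be technical. For a symbol with several entries, that with the most counts was used (44 others set aside), and an entry with neither name nor value was dropped.

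Counts were fitted with edgeR 4.0.16 in R 4.3.3 (filterByExpr, TMM scaling, robust quasi-likelihood test, two-sided, no covariates), and p was adjusted by Benjamini-Hochberg over 14057 genes. SE is the absolute log2 fold over the root of F, and 95% intervals use the test's degrees of freedom. Levels are TMM-scaled CPM, per kilobase of GENCODE M21 exon where genes are compared. Coordinates are from RefSeq. A summed value for B cell markers is not reported here. Members and lists were chosen with earlier results of these data known. Library values are given for members past an unadjusted p of 0.05 or without overlap at 1 CPM or more, and for a fixed set; in other lists, genes at an unadjusted p of 0.05 are named, and others named there were chosen after their values were seen. Alternatives also used DESeq2 1.42.0 and limma 3.58.1.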

Additional observations from a re-analysis of the deposited data

How the results depend on the processing

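The count of called genes among all tested, 32, was 275 without the filter on low counts, 635 with all 6 tables, 353 with the replicate block, 382 with DESeq2 and 17 with limma-voom, and 1 to 427 when 1 library was left out. Among family members, 0 were called; 1 was without the filter (Tnfrsf19), and 2 each with all 6 tables, the replicate block and DESeq2 (Tnfrsf19 and Tnfrsf9). It was 0 to 3 with 1 library left out, with 1 without PM replicate 2 (Tnfrsf19) and 3 without PM replicate 3 (Tnfrsf19, Tnfrsf1b and Tnfrsf9). Of the family members with other names, 1 was called with all 6 tables (Ltbr), and 0 to 1 with 1 library left out (Ltb, without PM replicate 3). Of the signalling genes, 0 to 1 was called with 1 library left out (Nfkbie, without PM replicate 3). The use of all 6 tables counts 1 library as 2, which lowers the spread by construction; otherwise the cause was not tested.

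The median log2 fold of tested members, 0.43, ranged from 0.29 to 0.58 with 1 library left out. Of 321 values of single members under the alternatives, 296 kept direction and side of the threshold, 11 passed it and 14 changed sign. Log2 folds changed sign with the replicate block for Tnfrsf10b (-0.0392), Tnfrsf25 (-0.45) and Tnfsf14 (-0.0199). With 1 library left out, the lowest and highest log2 folds were -0.00862 and 0.33 for Tnfrsf10b, -0.52 and 0.23 for Tnfrsf12a, -0.45 and 0.86 for Tnfrsf13c, -0.0870 and 0.17 for Tnfrsf1a, -0.46 and 0.62 for Tnfrsf25, -0.0422 and 0.84 for Tnfrsf26, -0.19 and 0.0203 for Tnfsf10, and -0.0912 and 0.73 for Tnfsf14. Whether replicate numbers pair the samples could not be settled. The deviations of same-numbered libraries correlated at -0.03 and 0.07 across genes. With 2 distinct PBS libraries, however, the PBS deviations mirror each other, and PM replicate 2 has no distinct partner. Depth limits low members: Tnf and Tnfrsf11b had at most 17 counts in any library. Tnfrsf11b could be tested in 9 of 13 alternatives, with log2 folds of 0.89 without PBS replicate 1 and 2.16 without PBS replicate 3.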
